A study of Mus musculus with 18 samples.

Results

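Aim2 and 9 other genes of the epithelial inflammasomes were examined, 10 of the 43432 genes in the count tables. They were taken by gene symbol and comprise the DNA sensor Aim2, the other sensors Nlrp6, Nlrc4, Naip1, Naip5 and Naip6, the adaptor Pycard, the caspases Casp1 and Casp4 and the cytokine Il18. The set was picked because Aim2 was plentiful in some libraries of the 2 day table and nearly silent in others. The 2 day values of Aim2 therefore chose the set, and they are given here as a description with no test. All 10 genes passed the filter on low counts at both times.

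Inflammasomes are protein platforms that assemble in the cytosol when a sensor meets a microbial product or a sign of damage. The sensor recruits the adaptor encoded by Pycard, also called ASC, which brings in the protease caspase-1. The protease matures cytokines such as the product of Il18 and cuts gasdermin D, which opens pores in the cell membrane. In the intestinal epithelium these platforms are known for guarding against invading bacteria, for expelling infected cells and for supplying the cytokine encoded by Il18.

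The samples were intestinal stem cells, sorted by flow cytometry from the intestinal epithelium of mice of 8 to 16 weeks, at 5000 to 10000 cells each. There were 4 libraries with the genotype Dlg1 conditional knock out (KO) and 4 labelled wildtype (WT) at 48 hours after tamoxifen, called 2 days here, and 5 of each genotype at 14 days after it. Tamoxifen, the drug that switches on an inducible recombinase, was given to both genotypes. The promoter that drives the recombinase is not given in the sources used here, and the labels do not say which replicates came from separate animals. Some but not all libraries of each group held transcripts of the Y chromosome, and the p-values reflect the spread of these libraries, part of which may be technical. The 2 day KO columns are named Dmin, read here as Dlg1 minus, and every comparison at that time rests on this reading.

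Libraries held 14.8 to 40.5 M (mega) counts at 2 days and 11.1 to 15.7 M at 14 days. Dlg1, the targeted gene and a scaffold of cell polarity, averaged 45.7 ± 8.49 CPM (counts scaled to a common library size) in KO and 59.4 ± 9.18 CPM in WT libraries at 2 days (SD, n = 4 each). At 14 days it averaged 64.3 ± 23.8 CPM in KO and 72.0 ± 11.95 CPM in WT (SD, n = 5 each), and it was not called at either time. Which exons are deleted is not given in the sources used here, so counts over the whole gene check the labels only in part. Arhgap31, a GTPase-activating protein, lay lower in every KO library than in any WT library at both times, with means of 0.454 against 3.24 CPM at 2 days and 1.71 against 10.1 CPM at 14 days. The summed level of 16 stem cell markers was 5358 to 6146 CPM in KO and 6423 to 6910 CPM in WT libraries at 2 days, and 2739 to 3804 CPM against 3029 to 4043 CPM at 14 days. Of these, Lgr5, Olfm4 and Smoc2, which define the stem cells, were present in all libraries.

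The Naip genes are near copies of each other on chromosome 13, so part of their reads cannot be told apart. Of all 50-base windows in their GENCODE M21 transcripts, 36.8% for Naip5, 31.5% for Naip1 and 21.5% for Naip6 occur letter for letter in transcripts of another gene, most often another Naip gene. No such window was found for Pycard, Casp1, Casp4, Il18 or Nlrp6, and Aim2 and Nlrc4 had 0.628% and 1.09%. For Naip1 the largest share was with Naip3, at 22.5%, a gene outside the set that is not shown here. A coding stretch of 90 bases shows the likeness at its closest, read from the GENCODE M21 transcripts (GRCm38, minus strand). It was picked among the stretches scanned for the most matches of Naip6 and Naip1 to Naip5. Capitals mark bases that differ from Naip5.
Naip5 chr13:100246009-100246098: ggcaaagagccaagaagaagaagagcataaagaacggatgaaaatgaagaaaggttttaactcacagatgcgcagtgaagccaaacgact
Naip6 chr13:100316361-100316450: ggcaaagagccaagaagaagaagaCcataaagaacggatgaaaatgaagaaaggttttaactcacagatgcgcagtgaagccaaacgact
Naip1 chr13:100444547-100444636: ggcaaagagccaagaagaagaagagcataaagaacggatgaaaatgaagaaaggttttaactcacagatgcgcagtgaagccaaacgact
Naip2 chr13:100189208-100189297: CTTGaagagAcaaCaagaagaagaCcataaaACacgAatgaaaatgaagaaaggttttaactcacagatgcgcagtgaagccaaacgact
Over this stretch Naip1 equals Naip5 in every base, Naip6 differs in 1 base and Naip2, a relative outside the set, differs in 10. This stretch was picked for likeness, and the shares of windows above describe the whole transcripts. Values of single Naip genes are uncertain, since how reads of several possible origins were counted is not given in the sources used here.

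The sequence just before a start site of Aim2 is shown because this gene chose the set. It holds the 250 bases before the RefSeq start on GRCm38.p6, plus strand, which is 1 of several starts that GENCODE annotates for the gene. No base is in capitals, because neither motif searched was found.
Aim2 chr1:173420354-173420603: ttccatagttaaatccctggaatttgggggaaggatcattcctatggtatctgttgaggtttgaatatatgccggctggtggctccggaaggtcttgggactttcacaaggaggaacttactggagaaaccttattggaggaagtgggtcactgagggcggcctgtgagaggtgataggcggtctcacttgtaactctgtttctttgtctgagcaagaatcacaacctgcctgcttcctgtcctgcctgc
The motifs were TTTC followed by any 2 bases and another TTTC, the core of the interferon-stimulated response element, and TTCNNNGAA, the gamma-activated site, on both strands of 300 bases that run to 50 bases after the start. All 10 genes had a RefSeq promoter of this length, and 0 of 10 held either motif. Of 32851 mouse promoters searched in the same way, 3.44% held the interferon-stimulated response element and 8.3% the gamma-activated site. These letters are therefore not in these windows, and nothing follows from that about the factors.

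Aim2 (ENSMUSG00000037860, chromosome 1, 173350879 to 173466040, plus strand) encodes a sensor that binds double-stranded DNA in the cytosol. At 2 days its level in KO libraries 1 to 4 was 0.879, 0.835, 2.27 and 4.42 CPM, from 18, 30, 41 and 72 raw counts. In WT libraries 1 to 4 it was 77.7, 60.0, 3.74 and 60.9 CPM, from 2145, 1211, 65 and 1129 raw counts. WT libraries 1, 2 and 4 were high, and WT library 3 lay within the range of the KO libraries. Every KO library lay below the WT mean and 3 of 4 lay below every WT library, but the groups overlapped through that 1 WT library. The means were 2.10 ± 1.68 CPM in KO and 50.6 ± 32.3 CPM in WT (SD, n = 4 each). The fitted level in KO was 4.03% of that in WT, a log2 fold change of -4.63 (standard error, SE, of 0.81), and between -5.29 and -4.34 with any 1 library left out.

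Other features of the 2 day libraries were set beside this pattern. KO libraries 1 to 4 held 19.9, 38.4, 15.7 and 17.0 M counts with mitochondrial shares of 35.5%, 39.75%, 27.3% and 39.3%. WT libraries 1 to 4 held 40.5, 18.95, 14.8 and 16.95 M counts with mitochondrial shares of 49.1%, 31.7%, 26.1% and 30.3%. WT library 1, the highest in Aim2, had the highest mitochondrial share and the fewest genes detected, 16073 against 17603 to 18750 in the other 7 libraries, while WT library 3, the lowest WT library in Aim2, had the lowest share and the highest sum of 9 Paneth cell markers, at 2964 CPM.

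Markers of some cell types differed between the groups at this time, though edgeR called 0 genes at an adjusted p under 0.05. The fold change was positive for 17 of 17 enterocyte markers, at a median of 1.32 in log2 units beside 0.0095 for all genes, and 9 had an unadjusted p under 0.05 in edgeR, beside 4.91% of all genes. These markers were read in the same libraries, so they are not separate observations. Their sum was 6174, 1983, 1832 and 2839 CPM in KO libraries 1 to 4 and 1792 to 2319 CPM in WT libraries. KO libraries 2 and 3 thus lay within the WT range. Among other types, 8 of 10 goblet, 5 of 9 Paneth, 5 of 7 tuft and 5 of 9 enteroendocrine markers tested had positive fold changes. The sum of the 16 stem cell markers was lower in every KO library than in any WT library. For single genes, such a failure of the groups to overlap was found for 3.98% of all genes. Of the 16 fold changes 4 were positive and 12 negative, at a median of -0.14 in log2 units. An unadjusted p under 0.05 in edgeR was found for 0 of them. Olfm4 alone held 2258 to 2724 CPM in KO and 2168 to 3324 CPM in WT libraries, with overlap. Transcripts from the Y chromosome were present in 2 of 4 KO and 2 of 4 WT libraries, and the WT pair comprised library 3, low in Aim2, and library 4, high in Aim2. The part of these features in the Aim2 difference was not tested.

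Leukocytes also express Aim2, so their markers were summed. The 10 general leukocyte genes together held 3.98 to 9.21 CPM in KO and 4.83 to 8.90 CPM in WT libraries, with 1 to 3 of them at 0 in each KO and 2 to 5 at 0 in each WT library. The 14 macrophage and dendritic cell genes summed to 20.1 to 32.3 CPM in KO and 27.2 to 65.4 CPM in WT libraries, with 1 to 8 at 0 in each KO and 3 to 7 at 0 in each WT library. The highest of these sums was that of WT library 1, with 55.6 CPM of Itgam, an integrin of myeloid cells. Itgam stood at 6.94, 3.01, 5.36 and 4.48 CPM in KO libraries 1 to 4. In WT libraries 2 to 4 it stood at 8.91, 8 and 10.1 CPM, so every WT library lay above every KO library. The groups failed to overlap for 3.98% of all genes at this time. Cd68 was present in all 8 libraries at 8.83 to 21.9 CPM, whereas Adgre1, which defines macrophages, was at 0 in KO libraries 3 and 4 and in WT libraries 1, 2 and 3. The 12 T cell genes summed to 6.45 to 16.7 CPM in KO and 3.97 to 14.0 CPM in WT libraries, with 2 to 7 at 0 in each KO and 3 to 9 at 0 in each WT library. The 9 B and plasma cell genes summed to 2.38 to 17.6 CPM in KO and 1.84 to 10.45 CPM in WT libraries. The part of these cells in the Aim2 values was not tested, and in such bulk samples fewer cells of a type and less RNA per cell cannot be told apart.

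At 14 days Aim2 was low in all libraries of both genotypes, values that the choice of the set did not use. Its level in KO libraries 1 to 5 was 1.12, 2.004, 0.414, 1.26 and 1.28 CPM, from 5 to 26 raw counts. In WT libraries 1 to 5 it was 2.24, 1.12, 1.82, 1.18 and 1.82 CPM, from 19 to 37 raw counts. No library came near the level of the high 2 day libraries, and the groups overlapped, with 1 of 5 KO libraries below every WT library. The means of 1.22 ± 0.566 CPM in KO and 1.64 ± 0.479 CPM in WT lay closer together than their SDs (n = 5 each). The difference of mean log2(CPM + 0.5) was -0.36 (two-sided exact permutation p = 0.286, where the smallest p this design allows is 0.00794). The log2 fold change was -0.42 with SE 0.47 (edgeR quasi-likelihood fit, Benjamini-Hochberg adjusted p = 0.957). The genotype effect at 14 days minus that at 2 days was 4.19 (SE 0.88) in log2 units, a description that rests on the 2 day values.

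**Figure D1:**
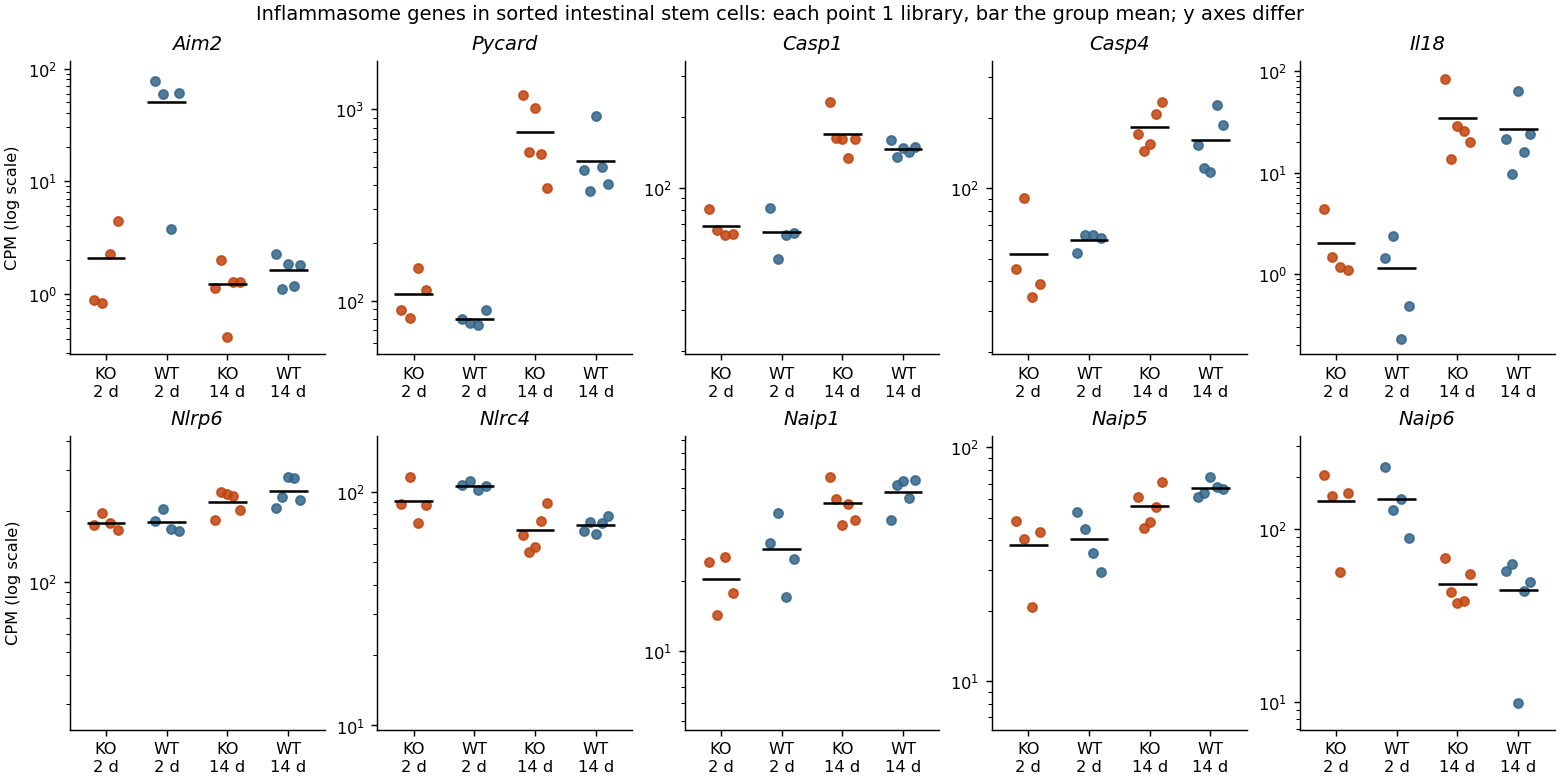
CPM of each of the 10 genes on a log axis, with 1 point per library and a bar at the group mean, for KO (orange) and WT (blue) at 2 and 14 days; CPM are scaled within each time's table. Aim2 at 2 days shows 3 WT libraries at 60.0 to 77.7 CPM and 1 at 3.74 CPM, and in all panels the genotypes overlap at each time.

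Of the remaining sensors, Nlrp6 (ENSMUSG00000038745, chromosome 7, 140920902 to 140929192, plus strand) is a receptor of microbial products and metabolites known for its expression in gut epithelium. It varied little at 2 days, with 174.5, 196, 179 and 166 CPM in KO libraries 1 to 4 and 181, 205, 168 and 164 CPM in WT libraries 1 to 4. Both genotypes spanned the same range, and the log2 fold change was -0.0061 with SE 0.14 (edgeR quasi-likelihood fit, Benjamini-Hochberg adjusted p = 0.993). At 14 days it had 219 ± 25.3 CPM in KO and 244 ± 33.3 CPM in WT (SD, n = 5 each), with 2 of 5 KO libraries below every WT library. The log2 fold change was then -0.15 with SE 0.15 (edgeR quasi-likelihood fit, Benjamini-Hochberg adjusted p = 0.957).

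Nlrc4 (ENSMUSG00000039193, chromosome 17, 74425438 to 74459142, minus strand) forms the platform that the Naip proteins trigger. At 2 days it stood at 88.5, 115, 73.4 and 88.1 CPM in KO libraries 1 to 4, and at 107, 111, 102 and 105 CPM in WT libraries 1 to 4. The WT libraries lay close together, with 3 KO libraries below all of them and 1 above. Its log2 fold change was -0.22 with SE 0.16 (edgeR quasi-likelihood fit, Benjamini-Hochberg adjusted p = 0.866). At 14 days the means were 68.7 ± 13.7 CPM in KO and 72.0 ± 5.07 CPM in WT (SD, n = 5 each), or a log2 fold change of -0.070 (SE 0.15).

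The Naip proteins bind bacterial ligands directly. In mice Naip5 and Naip6 recognise flagellin, and Naip1 recognises the needle protein of bacterial secretion systems. Naip6 (ENSMUSG00000078942, chromosome 13, 100281121 to 100317674, minus strand) was at 205, 155, 56.5 and 162 CPM in KO libraries 1 to 4 and at 230, 128, 149 and 88.5 CPM in WT libraries 1 to 4 at 2 days. KO library 3 was the lowest of the 8, and the groups otherwise overlapped, with a log2 fold change of -0.041 (SE 0.36). At 14 days it was at 67.7, 43.0, 37.3, 38.3 and 54.9 CPM in KO libraries 1 to 5 and at 56.9, 63.1, 9.88, 43.7 and 49.5 CPM in WT libraries 1 to 5. WT library 3 stood lowest there, and the same library held 15650 CPM of Paneth cell markers, against 1993 to 3812 CPM in the other WT libraries. The part of these cells in the value was not tested.

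Naip5 (ENSMUSG00000071203, chromosome 13, 100211739 to 100246323, minus strand) had 38.3 ± 12.1 CPM in KO and 40.6 ± 10.5 CPM in WT libraries (SD, n = 4 each) at 2 days. At 14 days 4 of 5 KO libraries lay below every WT library, at 56.1 ± 10.4 CPM in KO and 66.8 ± 4.98 CPM in WT (SD, n = 5 each). Its log2 fold change of -0.25 (SE 0.14) did not pass (edgeR quasi-likelihood fit, Benjamini-Hochberg adjusted p = 0.957). Naip1 (ENSMUSG00000021640, chromosome 13, 100407764 to 100452869, minus strand) had 20.3 ± 5.22 CPM in KO and 27.4 ± 9.19 CPM in WT libraries (SD, n = 4 each) at 2 days, a log2 fold change of -0.43 with SE 0.28 (edgeR quasi-likelihood fit, Benjamini-Hochberg adjusted p = 0.866). At 14 days Naip1 had 42.8 ± 8.19 CPM in KO and 47.9 ± 7.39 CPM in WT (SD, n = 5 each), or a log2 fold change of -0.16 (SE 0.17).

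The make-up of the Naip family differed between the tables more than between genotypes. Of the counts of Naip1, Naip2, Naip5 and Naip6 together, Naip6 took 22.5% to 27.5% in KO and 5.46% to 30.7% in WT libraries at 14 days, against 40.0% to 64.1% and 47.0% to 64.3% at 2 days. The ranges of the times did not overlap in either genotype. The ratio of Naip6 to Naip5 counts was 0.862 ± 0.168 in KO and 0.687 ± 0.340 in WT libraries at 14 days (SD, n = 5 each), and 3.62 ± 0.648 against 3.61 ± 0.761 at 2 days (SD, n = 4 each). The share of Naip5 alone was nearly constant at 2 days, at 14.8% to 16.2% in KO and 14.3% to 17.5% in WT libraries. The times are separate tables, so time and any difference between runs or cohorts cannot be told apart.

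**Figure D2:**
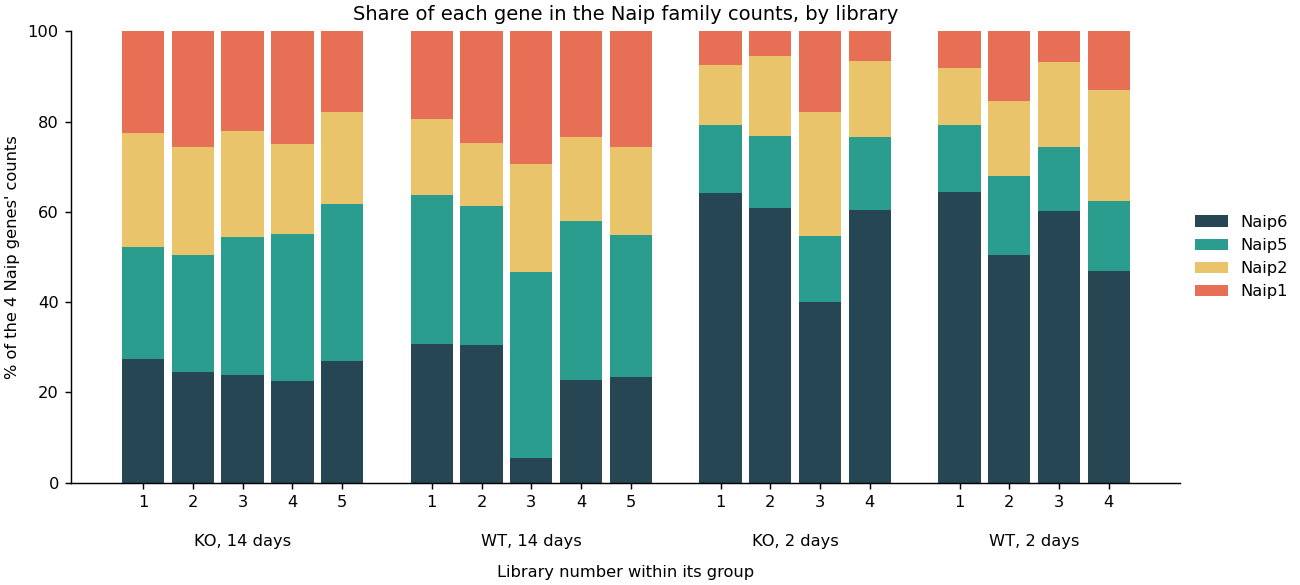
Stacked bars of the share of Naip6, Naip5, Naip2 and Naip1 in the counts of these 4 genes, in percent, with 1 bar per library grouped by genotype and time. Naip6 takes 5.46% to 30.7% of the counts in the libraries at 14 days and 40.0% to 64.3% in those at 2 days, and the genotypes overlap within each time.

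Pycard (ENSMUSG00000030793, chromosome 7, 127989708 to 127993867, minus strand) encodes the adaptor that links sensors to caspase-1. At 2 days it held 89.4, 81.2, 148 and 113 CPM in KO libraries 1 to 4 and 80.1, 76.4, 74.7 and 89.2 CPM in WT libraries 1 to 4. All 4 KO libraries lay above the WT mean and 3 above every WT library, at 108 ± 29.95 CPM in KO and 80.1 ± 6.50 CPM in WT (SD, n = 4 each). The log2 fold change of 0.43 (SE 0.19) had an unadjusted p of 0.0457 and did not pass (edgeR quasi-likelihood fit, Benjamini-Hochberg adjusted p = 0.866). With 1 library left out it ran from 0.23, without KO library 3, to 0.54, without KO library 2. Of the exonic bases of Pycard 12.8% overlap Gm45205 on the other strand. Without a stated strand setting reads of the 2 genes cannot be told apart there.

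At 14 days Pycard held 1190, 601, 1021, 583 and 388 CPM in KO libraries 1 to 5 and 479, 372, 921, 497 and 406 CPM in WT libraries 1 to 5. KO libraries 1 and 3 and WT library 3 were high, and the genotypes overlapped. The means were 757 ± 335 CPM in KO and 535 ± 222 CPM in WT (SD, n = 5 each), or a log2 fold change of 0.50 with SE 0.32 (edgeR quasi-likelihood fit, Benjamini-Hochberg adjusted p = 0.957). The column names at this time carry a letter, B or J, whose meaning is not given. Within B the means were 895 CPM in 2 KO and 425 CPM in 2 WT libraries, and within J 664 CPM in 3 KO and 608 CPM in 3 WT libraries. Of the 10 genes 6 had the same direction within both letters, and Il18, Nlrc4, Naip1 and Naip6 did not.

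Casp1 (ENSMUSG00000025888, chromosome 9, 5298517 to 5307265, plus strand) encodes caspase-1, the protease common to these platforms. At 2 days its level was 81.3, 66.0, 62.8 and 63.4 CPM in KO libraries 1 to 4 and 81.8, 49.8, 62.5 and 64.05 CPM in WT libraries 1 to 4. The ranges overlapped, with 2 WT libraries below every KO library and a log2 fold change of 0.083 (SE 0.18). At 14 days its level was 232, 163, 162, 134 and 162 CPM in KO libraries 1 to 5 and 159, 135, 147, 142 and 149.5 CPM in WT libraries 1 to 5. Of the KO libraries 4 lay above every WT library and 1 below, and the log2 fold change of 0.22 (SE 0.15) did not pass (edgeR quasi-likelihood fit, Benjamini-Hochberg adjusted p = 0.957).

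Casp4 (ENSMUSG00000033538, chromosome 9, 5308828 to 5336783, plus strand) is the neighbour of Casp1 and encodes the protease that responds to bacterial lipopolysaccharide in the cytosol. At 2 days it had 45.3, 90.9, 34.4 and 39.1 CPM in KO libraries 1 to 4 and 53.0, 63.1, 63.4 and 61.6 CPM in WT libraries 1 to 4. KO library 2 lay above and the other 3 lay below every WT library, so the KO values spread far wider than the WT values, with SDs of 26.0 against 4.89 CPM. Its log2 fold change was -0.20 with SE 0.27 (edgeR quasi-likelihood fit, Benjamini-Hochberg adjusted p = 0.917). With 1 library left out it ran from -0.61, without KO library 2, to -0.056, without KO library 3. At 14 days the means were 183 ± 37.7 CPM in KO and 161 ± 46.2 CPM in WT (SD, n = 5 each), or a log2 fold change of 0.18 (SE 0.20).

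Il18 (ENSMUSG00000039217, chromosome 9, 50554827 to 50581840, plus strand) encodes the cytokine precursor that caspase-1 matures. It was low at 2 days, at 4.40, 1.48, 1.16 and 1.11 CPM in KO libraries 1 to 4, from 18 to 90 raw counts, and at 1.45, 2.38, 0.230 and 0.486 CPM in WT libraries 1 to 4, from 4 to 48 raw counts. KO library 1, the highest, also had the highest sum of 17 enterocyte markers at that time, at 6174 CPM against 1792 to 2839 CPM in the other 7 libraries. For KO over WT the log2 fold change was 0.83 with SE 0.80 (edgeR quasi-likelihood fit, Benjamini-Hochberg adjusted p = 0.892). It was 0.13 without KO library 1 and 1.47 without WT library 2.

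At 14 days Il18 was at 83.9, 13.7, 29.0, 25.7 and 19.97 CPM in KO libraries 1 to 5 and at 21.6, 9.62, 63.9, 15.8 and 24.0 CPM in WT libraries 1 to 5. One library of each genotype was far above the rest, KO library 1 and WT library 3. The same 2 libraries led their groups in Pycard, in the sum of 10 goblet cell markers (14570 CPM in KO library 1, 6664 CPM in WT library 3), in enterocyte markers (5305 and 7723 CPM) and in mitochondrial share (24.2% and 26.3%), and the part of these in the values was not tested. The log2 fold change was 0.36 with SE 0.51 (edgeR quasi-likelihood fit, Benjamini-Hochberg adjusted p = 0.961), and it turned to -0.28 without KO library 1.

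Across the set, the edgeR quasi-likelihood fit (Benjamini-Hochberg adjusted p under 0.05) called 0 of the 9 genes other than Aim2 at 2 days and 0 of 10 at 14 days. Over all genes it called 0 of 13031 at 2 days and 0 of 13991 at 14 days, which is 0.00% at each time and the same share as among the members. DESeq2 also called 0 of them at either time, beside 0.104% of all genes at 2 days and 0.00716% at 14 days, and limma voom called 0 of them beside 0.00%. An unadjusted p under 0.05 was found for 1 of 9 genes at 2 days, Pycard, against 4.91% of all genes, and 0 of 10 at 14 days, against 3.99%. The groups failed to overlap for 0 of 10 genes at both times, against 3.98% of all genes at 2 days and 0.529% at 14 days. With Aim2 counted in, 3 fold changes were positive and 7 negative at 2 days, where 51.0% of all genes were positive. The median log2 fold change was -0.062 beside 0.0095 for all genes. Aim2 is among the 7 negative ones and its 2 day value chose the set, so this count and median only describe. At 14 days 5 fold changes were positive and 5 negative, with a median of 0.020 beside 0.0056. A genotype effect unlike between the 2 times was called for 0 of the 9 genes other than Aim2 (edgeR quasi-likelihood fit, Benjamini-Hochberg adjusted p from 0.896 to 1), while 0.00% of 15458 genes were called. For that difference 0 of the 9 had an unadjusted p under 0.05, against 5.96% of all genes, and 0 were called by DESeq2, against 0.0895%, or by limma voom.

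**Figure D3:**
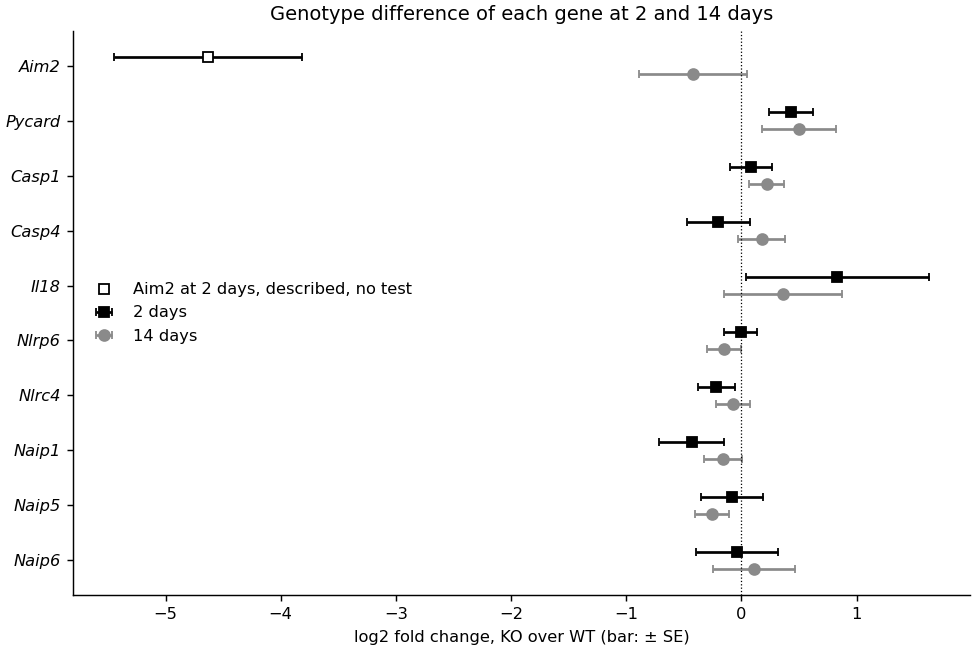
Log2 fold change of KO over WT for each gene at 2 days (black squares) and 14 days (grey circles), with bars of 1 standard error on each side and a dotted line at no difference. Aim2 at 2 days (open square) lies at -4.63 and all other values lie between -0.43 and 0.83.

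Per kilobase of exon, on 1 scale over all 18 libraries, the protease gene Casp1 and the gut sensor Nlrp6 stood highest at 2 days. In KO libraries Casp1 led with 54.0 CPM per kb, followed by Nlrp6 with 41.6, Pycard with 33.6, Naip6 with 25.0, Nlrc4 with 22.4, Casp4 with 16.7, Naip5 with 8.70, Naip1 with 4.35, Il18 with 2.34 and Aim2 with 0.706 CPM per kb. Only Casp1 and Nlrp6 were neighbours whose ranges over libraries did not overlap. In WT libraries the order was Casp1 at 51.04 CPM per kb, Nlrp6 at 41.9, Nlrc4 at 26.2, Naip6 at 25.8, Pycard at 25.0, Casp4 at 19.2, Aim2 at 17.1, Naip5 at 9.23, Naip1 at 5.86 and Il18 at 1.30 CPM per kb. There the ranges were apart between Nlrp6 and Nlrc4, between Pycard and Casp4 and between Naip1 and Il18. Aim2 thus took the last of 10 places in KO and place 7 in WT libraries, a description that rests on the values that chose the set. In single WT libraries it ran from 1.27 to 26.2 CPM per kb.

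At 14 days Pycard led in both genotypes, at 174 CPM per kb in KO and 124 CPM per kb in WT libraries. Casp1 came next with 99.05 and 86.1 CPM per kb, and Aim2 came last with 0.300 and 0.410 CPM per kb. Casp4, Nlrp6 and Il18 lay between 29.3 and 42.6 CPM per kb in KO and between 23.1 and 42.2 CPM per kb in WT libraries, with overlapping ranges. Nlrc4 and the 3 Naip genes lay between 6.14 and 12.4 CPM per kb in KO and between 5.73 and 13.2 CPM per kb in WT libraries. Casp1 stood apart from the next gene below it in both genotypes, and so did Naip6 from Aim2. In WT libraries Naip5 also stood apart from Naip1, and all other neighbours overlapped in their ranges.

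**Figure D4:**
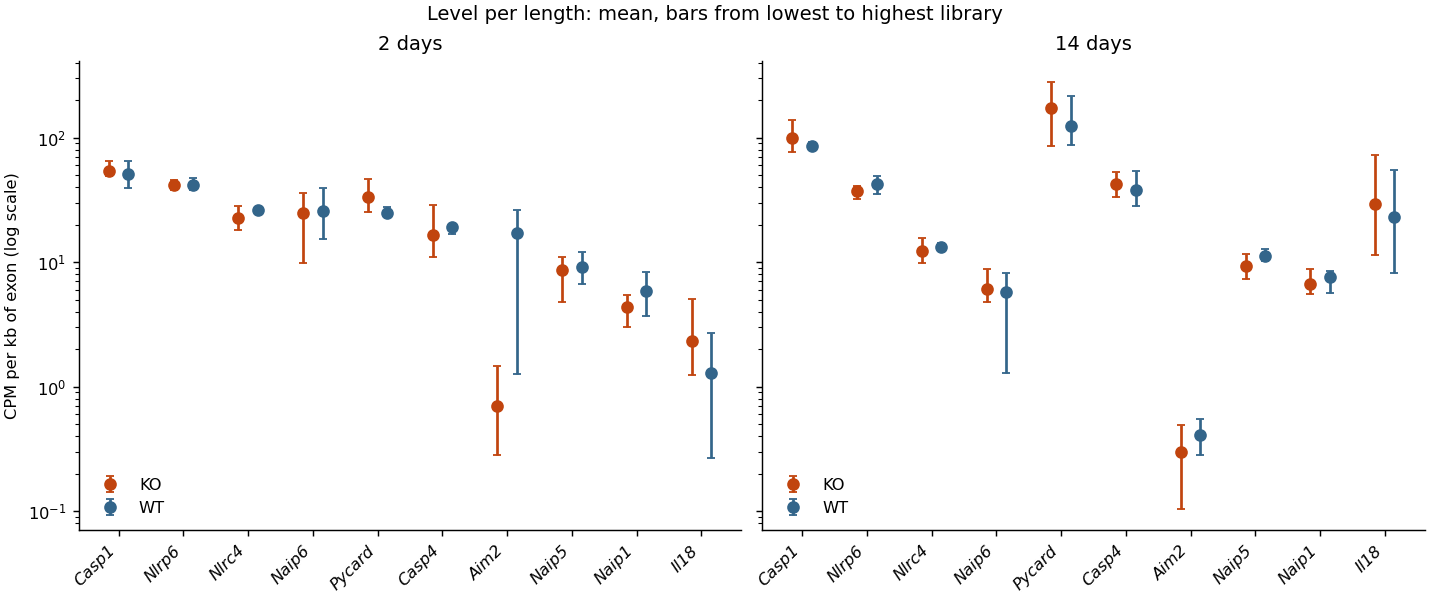
Level of each gene in CPM per kilobase of exon (log axis) at 2 days (left panel) and 14 days (right panel), with points at the mean of KO (orange) and WT (blue) libraries and bars from the lowest to the highest library. Aim2 in WT at 2 days has the widest bar, and Aim2 is the lowest gene in both genotypes at 14 days.

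On the same scale the levels of several genes were set side by side between times. Il18 averaged 30.2 CPM at 14 days and 2.41 CPM at 2 days in KO libraries, a ratio of 12.5, and 23.8 against 1.34 CPM in WT libraries, a ratio of 17.8. Pycard had ratios of 5.18 in KO and 4.97 in WT libraries, and Naip6 had 0.245 and 0.222. In KO libraries 5 of the 10 genes lay higher in every 14 day library than in any 2 day library (Pycard, Casp1, Casp4, Il18 and Naip1), against 21.3% of all genes. Another 2 (Nlrc4 and Naip6) lay lower in every 14 day library, against 21.7%. In WT libraries 4 lay higher (Pycard, Casp1, Casp4 and Il18), against 22.4%, and 3 lower (Aim2, Nlrc4 and Naip6), against 20.6%. The count of 3 includes Aim2, whose 2 day values chose the set, so its place there only describes. These are values of separate tables, and time cannot be told apart from other differences between them.

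Other genes of the pathway were taken from 3 lists, of inflammasome components, of cytosolic DNA sensing and of interferon-stimulated genes. By the edgeR quasi-likelihood fit (Benjamini-Hochberg adjusted p under 0.05) 0 of 78 tested genes were called at 2 days and 0 of 87 at 14 days, and DESeq2 and limma voom also called 0, beside shares of all genes of 0.00% by edgeR and limma voom and 0.104% and 0.00716% by DESeq2. Only Irf1 and Psmb9 at 2 days and Rnaseh2b at 14 days had an unadjusted p under 0.05 in edgeR, 2 genes and 1 gene, against 4.91% and 3.99% of all genes. The 27 tested inflammasome genes had 17 positive fold changes at 2 days and a median of 0.095 in log2 units, and of the 31 tested at 14 days 19 were positive, with a median of 0.029. Gsdmd, the pore former that caspase-1 cuts, had 28.6 ± 9.60 CPM in KO and 16.7 ± 7.70 CPM in WT libraries (SD, n = 4 each) at 2 days. WT library 1 stood at 5.50 CPM against 18.9 to 23.0 CPM in the other WT libraries. The log2 fold change of Gsdmd was 0.78 (SE 0.39), or 0.48 without WT library 1. Il1rn, an antagonist of interleukin receptors, had -2.15 (SE 1.32), Ppp1r13l 0.64 (SE 0.38) and Myd88, an adaptor of Toll-like receptors, 0.40 (SE 0.30). The value of Il1rn rested on WT library 1, at 13.7 CPM against at most 1.56 CPM in the other 7 libraries, and turned to 0.54 without it. The sensors Nlrp1a, Nlrp2, Nlrp3, Nlrp9a, Nlrp10 and Nlrp12 and the gene Mefv were at 0 in all 2 day libraries. Of these, Nlrp2 reached up to 6.28 CPM at 14 days. Genes detected per library numbered 16073 to 18750 at 2 days and 20398 to 26773 at 14 days, and the part of this in the zeros was not tested.

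Genes of cytosolic DNA sensing are the other arm that meets DNA outside the nucleus. Of 21 tested at 2 days 9 were positive, with a median of -0.081 in log2 units, and of 22 at 14 days 16 were positive, with a median of 0.023. Cgas, the sensor that makes a cyclic dinucleotide from cytosolic DNA, had 31.4 ± 5.20 CPM in KO and 44.9 ± 21.3 CPM in WT libraries (SD, n = 4 each) at 2 days, a log2 fold change of -0.52 (SE 0.29). Rnaseh2b, a subunit of an enzyme that removes RNA from DNA, had -0.78 (SE 0.37) at 2 days and 0.43 (SE 0.18) at 14 days. Both 2 day values rested on WT library 1, at 75.2 CPM of Cgas and 57.2 CPM of Rnaseh2b, and were -0.16 for Cgas and -0.26 for Rnaseh2b without it. The transcription factor Irf1 had 0.43 (SE 0.18) and the helicase Dhx9 -0.33 (SE 0.17) at 2 days.

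Interferon-stimulated genes, among which Aim2 is often counted, were summed over 37 genes at 2 days. The sums were 564.5, 615, 437 and 563 CPM in KO libraries 1 to 4 and 591, 505, 459 and 407 CPM in WT libraries 1 to 4. The groups overlapped, and the part of this program in the level of Aim2 was not tested. Of 31 tested at 2 days 18 were positive, with a median of 0.090 in log2 units, and of 35 at 14 days 15 were positive, with a median of -0.010. The immunoproteasome subunits Psmb9 and Psmb8 had log2 fold changes of 0.64 and 0.46 at 2 days, with standard errors of 0.18 and 0.24. Ifi44 had -1.51 (SE 0.89), or -0.19 without WT library 1 at 12.1 CPM, and Irf7, a transcription factor of the interferon response, 0.54 (SE 0.38). Psmb9 had 62.1 ± 6.31 CPM in KO and 39.8 ± 7.98 CPM in WT (SD, n = 4 each), with every KO library above every WT library. The groups failed to overlap for 3.98% of all genes at 2 days. Psmb9 was named for its small p within its list, an unadjusted p of 0.00445 (edgeR quasi-likelihood fit). Neither Psmb9 nor any other pathway gene named at 2 days passed (edgeR quasi-likelihood fit, Benjamini-Hochberg adjusted p = 0.866 for each). At 14 days the genes of smallest p in the 3 lists had log2 fold changes of 0.82 for P2rx7, a receptor for extracellular ATP (0.20 to 1.03 with a library left out), -0.22 for Dpp9, 0.26 for Naip2, 0.50 for Casp12, 0.32 for Hmgb1, 0.59 for Gm12250, -0.27 for Ddx41, -1.025 for Mx1, -0.52 for Oas1a, 0.47 for Cxcl10 and -0.31 for Parp14. None of these passed either (edgeR quasi-likelihood fit, Benjamini-Hochberg adjusted p = 0.957 for each).

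Aim2 belongs to the Ifi200 family, a cluster of genes for interferon-inducible DNA-binding proteins on chromosome 1. The 13 other genes of the family in the tables reached at most 0.693 CPM at 2 days and 0.859 CPM at 14 days in any library, with at most 14 raw counts. None passed the filter on low counts at either time, so no fold change was computed for them. Sequence shared among these genes was not examined. How reads of several possible origins were counted is not given, so low counts need not mean absent transcripts.

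Over the 8 libraries at 2 days, 9465 genes were ranked by Pearson r of log2 CPM with Aim2. Among the highest were Etv6, a transcriptional repressor, at 0.93, the kinase Taok1 at 0.92, the lysosomal sulfatase Arsb at 0.91, Zbtb44 at 0.90, Tmem68 at 0.90 and the nuclear matrix protein Matr3 at 0.89. Among the lowest were the signalling adaptor Bcl10 at -0.93, the vesicle fusion protein Vamp8 at -0.93 and Tpgs1 at -0.92. Only 5 genes exceeded 0.9 and 7 lay under -0.9, and over so few libraries, which differ in genotype and depth, these values only describe. Over the 10 libraries at 14 days the r of these 6 genes of high r ranged from -0.40 for Taok1 to 0.39 for Zbtb44. Arsb had 5.96, 3.09, 7.24 and 7.24 CPM in KO libraries 1 to 4 and 17.4, 11.9, 8.23 and 12.8 CPM in WT libraries 1 to 4 at 2 days, values that follow in part from its choice by r with Aim2. Within the set, r with Aim2 at 2 days was 0.68 for Naip1, 0.42 for Nlrc4 and between -0.31 and 0.15 for the other 7 genes.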

How the data were processed

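Messenger RNA of sorted cells was captured on poly(A) beads, amplified and made into SmartSeq and Nextera XT libraries, per the labels' protocols. For each time the authors deposited a table of raw counts, whole numbers by Ensembl gene and library. The submitters' processing notes name STAR 2.4.2a, bcl2fastq 2.20.0.422 and GRCm38. Which counter, annotation and strand setting were used is not given in the sources used here. Symbols came from GENCODE M21 (42548 of 43432 identifiers matched). Columns were assigned to genotypes by their names and numbered in table order, which pairs no samples.

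Each time was fitted alone with edgeR 4.0.16 in R 4.3.3 (filterByExpr, minimum count 10, TMM, quasi-likelihood F-test, Benjamini-Hochberg over all genes, called at an adjusted p under 0.05). A fit of all 18 libraries tested the difference between times and gave the scale for levels per kilobase. Standard errors were the size of the log2 fold change over the root of F. CPM used TMM-scaled totals, and log2 CPM for correlations a prior count of 2. The exact test used a pseudocount of 0.5 CPM. The fit was tested on simulated data. Alternatives were RLE and upper-quartile factors, no filter, a minimum count of 50, DESeq2 1.42.0, limma voom 3.58.1, the joint fit, each library left out and, added after seeing the data, the letter of the column names as a term and each library left out for the pathway genes named. Totals of 11.1 to 40.5 M counts set the precision, and without molecular identifiers they include amplified copies.

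The members, the gene lists and the tests were chosen with earlier results of these data known. All 10 members were named, Dlg1 and Arhgap31 as checks, up to 4 genes of smallest p per pathway list and time, and the 8 highest and 4 lowest correlations with Aim2 among genes with an average log2 CPM of at least 2 that are not predicted models; some of these are not reported here. Itgam, Adgre1 and Cd68 were named after their values were seen.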

Additional observations from a re-analysis of the deposited data

Results flagged for a closer look

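In 5 of 38 groups of libraries, 1 for each gene, genotype and time without the 2 day groups of Aim2, a single library lay far from the others by Dixon's test, where chance gives about 1 in 20. Il18 did so in 3 groups, with 4.40 CPM in KO library 1 at 2 days, 83.9 CPM in KO library 1 at 14 days and 63.9 CPM in WT library 3 at 14 days. Pycard did so with 921 CPM in the same WT library 3 at 14 days. Casp4 did so with 53.0 CPM in WT library 1 at 2 days, a small gap among 4 close values.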

How the results depend on the processing

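The count of members and of pathway genes called stayed at 0 under every alternative and with each library left out, at both times, and so did the count of members whose genotype effect differed between times. Aim2 at 2 days had a log2 fold change of -4.64 to -4.60 under the other settings and -5.29 to -4.34 with a library left out. Those 2 day values chose the set, so these ranges only describe. The Aim2 difference at 14 days was -0.36 to -0.27 under other scalings and a pseudocount of 1 CPM, and -0.51 to -0.15 with a library left out. Fold changes near 0 turned: at 2 days Nlrp6 was 0.019 with upper-quartile factors and 0.0022 with a minimum count of 50, and Naip6 was 0.0037 with upper-quartile factors. With a library left out, the log2 fold change at 2 days ran from -0.023 to 0.21 for Casp1, from -0.054 to 0.064 for Nlrp6, from -0.22 to 0.11 for Naip5 and from -0.27 to 0.24 for Naip6. At 14 days it ran from -0.28 to 0.96 for Il18 and from -0.15 to 0.27 for Naip6. The cause was not tested. For the pathway gene Il1rn at 2 days it ran from -2.62 to 0.54, a check added after seeing the data. Of 402 differences with a library left out, those of named pathway genes included, 13 turned sign, and of 151 under other settings 3 did. With the letter of the column names as a term, a choice made after seeing the data, no member turned sign at 14 days.

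No paired analysis was possible because the columns carry no replicate number of the labels. A minimum count of 50 gave no value for Il18 at 2 days and Aim2 at 14 days. Depth limits Aim2 at 14 days and Il18 at 2 days, with 5 to 37 and 4 to 90 raw counts.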
